A study of Mus musculus with 30 samples.

Results

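DMHCA, a dimethyl amide of hydroxycholenoic acid made as a mimetic of desmosterol, was compared with vehicle in primary mouse macrophages drawn into the peritoneum with thioglycollate. The comparison rests on 6 libraries, chosen by their treatment labels out of 30 in the whole series and 18 from macrophages: 3 from cells given DMHCA at 1 uM and 3 from cells given vehicle, labelled DMSO / EtOH without saying which solvent each library had. All 6 cultures shared the same conditioning, RPMI medium that for 24 h before the ligand held 10% lipid-deficient serum, 10 uM mevastatin, which blocks cholesterol synthesis, and 50 uM mevalonate. Cells then stayed 18 to 20 h with DMHCA or vehicle in lipid-deficient medium. The other macrophage groups, given T0901317, MePipHCA or GW3965 at 1 uM or desmosterol at 10 uM, also entered the fit. The report also uses primary mouse hepatocytes given DMHCA at 1 uM or vehicle. For these groups too the labels give 24 h with mevastatin, mevalonate and lipid-deficient serum at the same doses. Their exposure was also 18 to 20 h. The labels give no strain, sex, age or number of animals and do not say whether replicates were separate cultures, and the p-values reflect library-to-library spread that may be technical only.

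Oxysterols and desmosterol bind the liver X receptors (LXR), nuclear receptors that pair with RXR and switch on genes for cholesterol export, lipoprotein lipids and, through SREBP-1c, fatty acid synthesis. The SREBP-2 factor does the opposite work: when sterols in the endoplasmic reticulum run low it is cut free and drives cholesterol synthesis and lipoprotein uptake, and when sterols are plentiful it is held back by Scap and Insig proteins. Synthetic LXR agonists and sterol ligands differ in how they act on that second arm, and macrophages, which take up lipoproteins and dead cells, depend on both. The comparison asks what a sterol-like LXR ligand does to the whole transcriptome of such cells.

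Libraries of DMHCA held 3.86, 5.78 and 7.69 M exon counts, against 10.55, 15.69 and 11.66 M for vehicle, and 11544 of the 24063 genes listed had counts enough to be tested. The 9 macrophage markers summed to 17560 to 18560 CPM (counts scaled to library size) with DMHCA and 17710 to 17800 CPM with vehicle, and markers of neutrophils, B cells and T and NK cells summed to under 13 CPM in each library. Of 6 hepatocyte markers 4 were at 0 in all 6 libraries. Trf, transferrin, made up nearly all of that list's sum of 762, 811 and 895 CPM with DMHCA and 705, 691 and 734 CPM with vehicle, and rose by 0.22 ± 0.06, a call lost without DMHCA replicate 3 (adjusted p = 0.174) or vehicle replicate 2 (0.0687). In a principal component analysis of the 18 macrophage libraries DMHCA replicate 1, the shallowest of its group, lay apart from the other 2 on the components ranked 3 and 4, which held 6.95% and 6.27% of the variance. Markers of stellate cells and fibroblasts summed to 227, 337 and 266 CPM with DMHCA and 384, 503 and 398 CPM with vehicle, and mesothelial markers to 17.0, 21.5 and 22.6 CPM against 24, 30.6 and 29.4 CPM. Endothelial markers summed to 124, 115 and 139 CPM with DMHCA and 137, 148 and 167 CPM with vehicle. Most of this was Vwf, while Pecam1 was at most 0.534 CPM and Emcn at 0. Of 2 tested endothelial markers 1 fell, Vwf. That call was lost without DMHCA replicate 1 (adjusted p = 0.0989) or 2 (0.148) or vehicle replicate 2 (0.0505) or 3 (0.230). In such bulk RNA fewer cells of a type and less RNA per cell cannot be told apart.

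The promoters of some genes that carry the main results are shown first, chosen because they hold the letters of known response elements. Windows run from 250 bases before to 50 after a start site in RefSeq (build GRCm38, the mm10 of the files), are written on the gene's strand and have the match in capitals. The DR4 element of LXR and RXR was searched as GGTNA repeated in the same direction after any 5 bases, the sterol element of SREBP as TCACNCCAC and the element of unfolded protein response promoters (ERSE) as CCAAT followed after any 9 bases by CCACG, each on both strands. Abca1 (chr4:53159846-53160145, minus strand) holds a DR4 match that begins at -67, Srebf1 (chr11:60210422-60210721, minus strand, a start site inside the counted transcript) holds one at -182, Hmgcs1 (chr13:119690101-119690400, plus strand) holds a sterol element at -137 and Hspa5 (chr2:34771840-34772139, plus strand) an ERSE at -65.
Abca1: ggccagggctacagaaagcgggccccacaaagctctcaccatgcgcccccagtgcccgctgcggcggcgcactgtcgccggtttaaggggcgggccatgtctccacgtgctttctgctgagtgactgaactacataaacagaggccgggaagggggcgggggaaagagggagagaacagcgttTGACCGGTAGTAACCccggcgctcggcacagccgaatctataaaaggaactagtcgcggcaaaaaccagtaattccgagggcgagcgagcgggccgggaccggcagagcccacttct
Srebf1: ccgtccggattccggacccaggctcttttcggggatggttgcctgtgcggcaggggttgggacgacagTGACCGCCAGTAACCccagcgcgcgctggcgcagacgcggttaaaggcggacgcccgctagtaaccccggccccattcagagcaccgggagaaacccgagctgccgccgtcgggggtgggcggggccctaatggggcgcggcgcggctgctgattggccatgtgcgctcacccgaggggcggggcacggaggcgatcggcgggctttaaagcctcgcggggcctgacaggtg
Hmgcs1: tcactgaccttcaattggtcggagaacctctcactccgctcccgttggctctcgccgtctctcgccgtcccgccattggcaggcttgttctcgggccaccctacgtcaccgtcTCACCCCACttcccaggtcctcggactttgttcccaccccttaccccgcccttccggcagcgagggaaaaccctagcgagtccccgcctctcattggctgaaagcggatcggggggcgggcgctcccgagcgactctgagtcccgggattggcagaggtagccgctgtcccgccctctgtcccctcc
Hspa5: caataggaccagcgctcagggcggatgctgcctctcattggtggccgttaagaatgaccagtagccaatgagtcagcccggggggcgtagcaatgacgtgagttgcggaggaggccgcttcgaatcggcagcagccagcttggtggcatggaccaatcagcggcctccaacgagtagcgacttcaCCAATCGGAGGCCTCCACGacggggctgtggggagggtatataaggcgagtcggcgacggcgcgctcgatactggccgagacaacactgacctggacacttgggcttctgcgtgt

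Such matches were rare among the 27025 genes with a window, at 0.818% for DR4, 1.44% for the sterol element and 0.137% for the ERSE. Of the genes tested here 8755 had a window. The ERSE lay in 12 of them, of which 8 were called higher with DMHCA, 4 were not called and 0 were called lower. Of the 12, 8 were members of the list of unfolded protein response genes and chaperones, where 19 of 22 tested members had a window (42.1% of the 19), and their matches are set out because the middle letters differ while the ends, in capitals, are the fixed part of the motif. DR4 lay in 49 tested genes, of which 6 were called higher and 3 lower. Over all 11544 genes tested, 5.80% were called higher and 5.90% lower. The sterol element lay in 1.41% of the genes called higher and 1.47% of those called lower, against 1.37% of those tested. Most members of the lists had no match. DR4 lay in 1 of 9 LXR targets with a window, Abca1. The sterol element lay in 1 of 7 mevalonate enzymes with a window, Hmgcs1. It lay in 0 of 9 squalene and post-squalene enzymes and 0 of 7 genes of the SREBP-2 list. A match is a run of letters, not a measured binding site.
Hspa5: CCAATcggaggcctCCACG
Hsp90b1: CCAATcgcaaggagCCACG
Calr: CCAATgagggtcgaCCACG
Canx: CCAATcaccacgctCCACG
Pdia6: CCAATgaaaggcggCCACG
Dnajc3: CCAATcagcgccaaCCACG
Creld2: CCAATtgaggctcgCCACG
Syvn1: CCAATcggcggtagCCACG

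Against vehicle, DMHCA changed 1350 of the 11544 tested genes (11.7%) by edgeR's quasi-likelihood test at a Benjamini-Hochberg adjusted p below 0.05. Of these 669 rose (5.80%) and 681 fell (5.90%), and below, "rose" and "fell" are kept for genes past that threshold. Most changes were small. Under 1.5-fold either way lay 958 of the called genes, 66 rose and 92 fell at least 2-fold, and 17 rose and 9 fell at least 4-fold. The median change on the log2 scale was 0.33 among genes that rose and -0.44 among those that fell, while that of all tested genes was -0.003. In 653 of the 669 and 654 of the 681 all 3 DMHCA libraries lay on the called side of all 3 vehicle libraries, a separation found in 13.4% of all tested genes upward and 14.1% downward. Genes called higher summed to 231843 CPM with DMHCA and 180207 CPM with vehicle, and genes called lower to 80140 CPM with DMHCA and 98930 CPM with vehicle, directions that the choice of genes fixes. Leaving out vehicle replicate 2 took the calls to 898, of which 431 were lower, and leaving out DMHCA replicate 3 took the lower calls to 450.

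**Figure D1:**
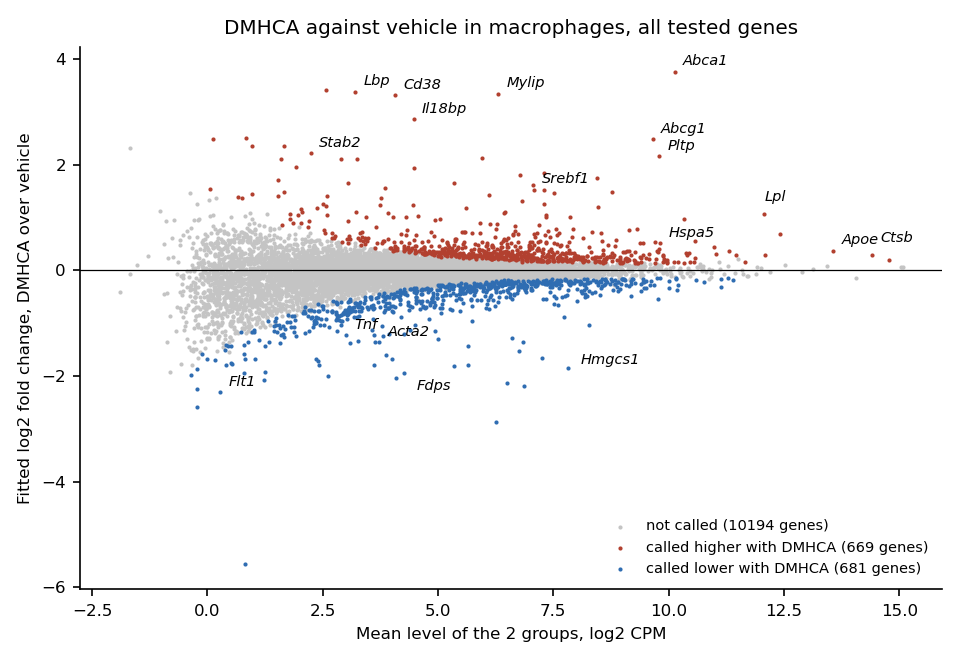
Each point is a tested gene, with the mean level of the 2 groups in log2 CPM across and the fitted log2 fold change of DMHCA over vehicle upward; red genes were called higher (669), blue genes lower (681) and grey genes were not called. Abca1 lies at the top right, and Hmgcs1 and Fdps lie well below the band of grey genes.

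The sterol export arm of LXR rose as a block. Of 13 tested members of the list of LXR targets 12 rose and 0 fell, with a median log2 fold change of 1.08, against -0.003 over all tested genes. Abca1, the pump that hands cholesterol to lipid-poor apolipoproteins (NM_013454, chromosome 4), stood at 2100, 2160 and 1999 CPM with DMHCA and at 140, 161 and 159 CPM with vehicle. The groups were far apart, 13.6-fold (log2 fold change 3.76 ± 0.05, SE). Abcg1, which exports cholesterol to HDL, read 1400, 1402 and 1307 CPM with DMHCA and 229, 251 and 252 CPM with vehicle (2.49 ± 0.05). Mylip, a ubiquitin ligase that limits lipoprotein uptake, read 145, 150 and 138 CPM against 13.7, 14.1 and 14.5 CPM, a 10.2-fold rise.

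Lipid carriers and lipases of the same list rose too. Pltp, which moves phospholipids between lipoproteins and whose exons overlap those of Ctsa on the opposite strand, read 1453, 1468 and 1424 CPM with DMHCA against 311, 321 and 333 CPM with vehicle. Its change was 2.17 ± 0.06 on the log2 scale, whereas Ctsa moved by 0.16 ± 0.06 and was not called. Lpl, lipoprotein lipase, rose 2.11-fold, with 5883, 5817 and 5844 CPM against 2863, 2655 and 2798 CPM (1.08 ± 0.04). Apoe, the apolipoprotein that macrophages secrete, was already abundant and rose by 0.38 ± 0.05 to a mean of 13769 CPM, against 10609 CPM in vehicle. Arl4c (2.13 ± 0.07), a small GTPase of vesicle traffic, Cd5l (1.81 ± 0.08), a secreted macrophage protein, Lpcat3 (0.89 ± 0.08), which puts polyunsaturated chains into phospholipids, and Mertk (0.71 ± 0.05), a receptor for dying cells, also rose. Smpdl3a, a phosphodiesterase induced by LXR in human macrophages, was level at -0.00 (95% interval -0.11 to 0.10). The receptors themselves moved little, with Nr1h3, which encodes LXR-alpha, the only 1 of 10 nuclear receptor genes called (0.29 ± 0.07).

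**Figure D2:**
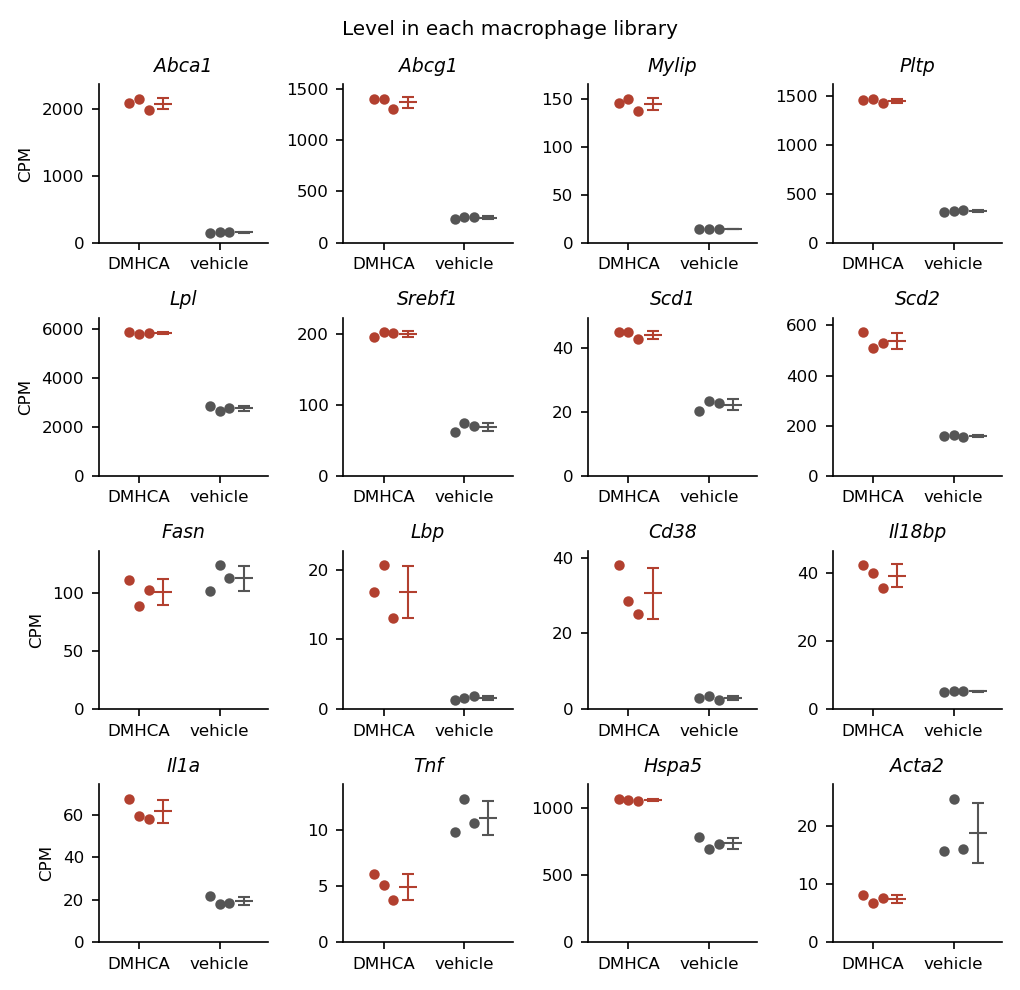
CPM of 16 genes in each of the 3 DMHCA libraries (red, left) and 3 vehicle libraries (grey, right) on axes from 0, with the mean and SD as a bar beside the points. The DMHCA points lie above all vehicle points for Abca1 to Scd2 and for Lbp, Cd38, Il18bp, Il1a and Hspa5, below them for Tnf and Acta2, and among them for Fasn.

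Fatty acid synthesis split in 2 directions. Of 14 tested members of its list 5 rose and 6 fell. Srebf1, which encodes the SREBP-1 factors, read 195, 203 and 201 CPM with DMHCA and 62.2, 74.0 and 70.6 CPM with vehicle, with no overlap (1.53 ± 0.06). The stearoyl-CoA desaturase genes on the list rose: Scd2 read 573, 508 and 531 CPM against 159, 164 and 154 CPM (1.76 ± 0.06), and Scd1 read 44.8, 44.7 and 42.6 CPM against 20.2, 23.5 and 22.6 CPM (0.98 ± 0.09). The elongase Elovl5 rose by 0.45 ± 0.07. Acaca, acetyl-CoA carboxylase, rose by 0.40 ± 0.11, a call lost without DMHCA replicate 3 (adjusted p = 0.0977) or vehicle replicate 1 (0.0600). Fasn, the synthase of palmitate, whose RefSeq promoter holds the same 15 DR4 letters as Abca1 (written GGTtActaccGGTcA), did not follow. It read 111, 89.1 and 103 CPM with DMHCA and 102, 124 and 112 CPM with vehicle, overlapping groups and a change of -0.17 (95% interval -0.32 to -0.03, adjusted p = 0.131), called lower without vehicle replicate 1 (adjusted p = 0.0326) and with all libraries thinned to 1 depth (0.0488).

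Among the 6 members that fell, Elovl6, which lengthens palmitate, read 7.60, 6.29 and 7.88 CPM with DMHCA and 20.7, 23.9 and 21.4 CPM with vehicle (-1.60 ± 0.16). Fads2, the first desaturase of polyunsaturated chains, fell by 1.78 ± 0.28 on the log2 scale, Fads1 by 0.33 ± 0.06 and Acly, ATP citrate lyase, by 0.50 ± 0.05. Acss2, which makes acetyl-CoA from acetate and shares exonic bases with Gss on the other strand, fell by 0.96 ± 0.19.

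Cholesterol synthesis fell almost from end to end. Of 21 tested enzymes 18 fell, 1 rose and 2 were not called, with a median log2 change of -1.79. In the mevalonate arm, where 8 of 9 fell, Hmgcs1, which makes HMG-CoA, read 101, 88.7 and 103 CPM with DMHCA and 369, 351 and 336 CPM with vehicle (-1.85 ± 0.06). Ggps1, which leads away from sterols to geranylgeranyl lipids, was the member not called (0.17, interval -0.10 to 0.45). Fdps, which makes farnesyl diphosphate, fell by 1.95 ± 0.15 and Mvd, which closes the mevalonate steps, by 1.79 ± 0.10.

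Beyond squalene 10 of 12 enzymes fell. Cyp51, the demethylase of lanosterol, read 38.8, 38.4 and 48.1 CPM with DMHCA and 196, 191 and 189 CPM with vehicle (-2.18 ± 0.08). Sqle, the epoxidase of squalene, read 29.1, 30.4 and 39.5 CPM against 149, 150 and 144 CPM (-2.13 ± 0.08). The groups did not overlap for either gene, which the rule that picked the largest falls required. Dhcr7, a sterol reductase, fell least of those called (-0.71 ± 0.08), and Ebp, a sterol isomerase, was not called (-0.19, interval -0.34 to -0.03, adjusted p = 0.127).

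The exception in the pathway was Fdft1, squalene synthase, which rose by 0.31 ± 0.05 with 400, 435 and 427 CPM with DMHCA against 341, 334 and 343 CPM with vehicle. Its annotated exons (chromosome 14, minus strand) overlap those of Ctsb, the lysosomal cathepsin B, on the plus strand. Ctsb rose by 0.30 ± 0.04, to 23585 to 24350 CPM with DMHCA against 19017 to 19958 CPM with vehicle. The headers state no strand option for the counting, so reads of the 2 genes cannot be told apart in the overlap, and the direction of Fdft1 is uncertain. The antisense gene 4930483K19Rik, which overlaps Lss, moved with the enzyme in the same way.

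**Figure D3:**
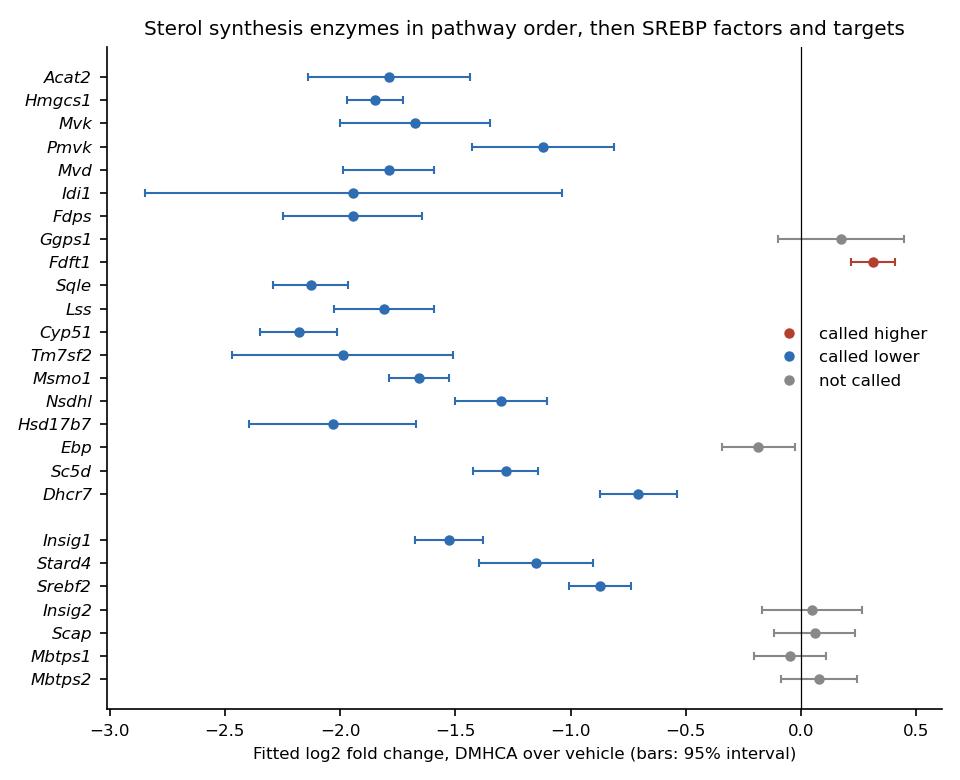
Fitted log2 fold changes of DMHCA over vehicle with 95% intervals for 19 enzymes of cholesterol synthesis from the first step down, and below the gap for genes of SREBP control and sterol transfer. All called enzymes shown lie between -2.18 (Cyp51) and -0.71 (Dhcr7) except Fdft1 at 0.31; the SREBP processing genes Scap, Mbtps1, Mbtps2 and Insig2 straddle 0.

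Of 10 tested members of the list of SREBP factors, processing genes and other SREBP-2 targets 5 fell and 0 rose. Insig1, an anchor of the Scap and SREBP complex, read 52.9, 51.5 and 61.0 CPM with DMHCA and 164, 160 and 158 CPM with vehicle (-1.53 ± 0.07). Srebf2, which encodes SREBP-2, fell by 0.87 ± 0.07 and Stard4, a carrier of sterol between membranes, by 1.15 ± 0.12. Scap, Insig2, Mbtps1 and Mbtps2 were not called, with Scap at 0.06 (interval -0.12 to 0.23) and Insig2 at 0.05 (interval -0.17 to 0.26).

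Genes that store or move sterol and take up lipoproteins changed less. Of 12 tested genes of sterol esterification and transfer 2 rose: Gramd1b, which carries sterol from the plasma membrane to the endoplasmic reticulum, read 89.1, 96.0 and 88.0 CPM with DMHCA and 46.8, 49.4 and 52.5 CPM with vehicle (0.88 ± 0.07), and Nceh1, a cholesteryl ester hydrolase, rose by 0.18 ± 0.05. Of 9 scavenger and lipoprotein receptors 3 rose and 1 fell. Msr1, scavenger receptor A, read 253, 242 and 220 CPM against 134, 142 and 137 CPM (0.79 ± 0.06), and Cd36 rose by 0.29 ± 0.04. Lrp1, a receptor for lipoprotein remnants, rose by 0.28 ± 0.07, a call lost without DMHCA replicate 3 (adjusted p = 0.0795) or vehicle replicate 1 (0.0839) and by DESeq2 (0.0768). Scarb1, the HDL receptor, fell by 0.68 ± 0.07. Of 15 triglyceride and droplet genes 0 rose and 2 fell, the lipase genes Mgll (-0.29 ± 0.05) and Pnpla2 (-0.24 ± 0.06, adjusted p = 0.0529 without DMHCA replicate 1).

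Chaperones of the endoplasmic reticulum rose together by small steps. Of 22 tested members of the unfolded protein response list 15 rose and 0 fell, with a median log2 change of 0.33. Hspa5, the chaperone BiP, read 1073, 1060 and 1057 CPM with DMHCA and 784, 700 and 738 CPM with vehicle, 1.44-fold higher with no overlap. Sdf2l1, a component of the BiP cycle, read 124, 118 and 122 CPM against 81.1, 72.3 and 75.9 CPM (0.67 ± 0.09). Dnajc3, a co-chaperone of BiP, rose by 0.63 ± 0.07, Creld2 by 0.58 ± 0.09, Manf by 0.53 ± 0.07 and Hyou1 by 0.51 ± 0.06. Of the 8 members with an ERSE match, 7 rose, by 0.21 (Canx) to 0.63 (Dnajc3), and Syvn1 did not pass (0.02, interval -0.14 to 0.18). Ddit3, the death-linked factor CHOP, read 28.6, 39.3 and 32.6 CPM against 34.4, 31.5 and 30.0 CPM, overlapping groups (0.08, interval -0.12 to 0.28).

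Genes of the ATF4 amino acid response did not move as a block. Of 20 tested 3 rose and 2 fell. Mthfd2, a mitochondrial folate enzyme, read 24.6, 31.8 and 22.8 CPM with DMHCA and 12, 14.1 and 12.7 CPM with vehicle (1.01 ± 0.12). Asns, asparagine synthetase, was at 0.58 ± 0.22 and Trib3, a pseudokinase, at 0.36 ± 0.21, and neither passed. Slc7a11, the cystine importer, fell by 0.59 ± 0.11 and Cebpb by 0.52 ± 0.11. The rises of the factors Cebpg and Atf3 were each lost without vehicle replicate 2 (adjusted p = 0.153 and 0.255), which left 1 member higher. Cebpg was also lost without DMHCA replicate 1 (0.160) or 2 (0.0838) or vehicle replicate 3 (0.131), and Atf3 without DMHCA replicate 3 (0.277).

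Among immune genes the largest changes were rises. Cd38, an ectoenzyme that consumes NAD, read 38.0, 28.5 and 25.2 CPM with DMHCA and 2.86, 3.37 and 2.53 CPM with vehicle, 9.97-fold higher. Lbp, which presents bacterial lipopolysaccharide to its receptor, read 16.8, 20.6 and 13.1 CPM against 1.29, 1.56 and 1.86 CPM (3.38 ± 0.22). Il18bp, a secreted trap of interleukin 18 whose exons overlap those of Numa1, read 42.2, 40.0 and 35.4 CPM against 5.08, 5.44 and 5.32 CPM (2.87 ± 0.11). Il1a, the cytokine interleukin 1 alpha, read 67.6, 59.2 and 58.0 CPM against 21.7, 18.1 and 18.4 CPM (1.66 ± 0.09). All 4 genes had every DMHCA library above every vehicle library, as did 13.4% of all tested genes. The rule that picked the largest rises required this of Cd38, Lbp and Il18bp. Mefv, which encodes the inflammasome protein pyrin, rose by 2.11 ± 0.22 and Cfp, the complement factor properdin, by 1.49 ± 0.05, while Il1b had 1 count with DMHCA and 9 with vehicle and was not tested. Of 13 tested genes of the interleukin 1 and 18 axis 2 rose and 1 fell, of 15 chemokine genes 2 rose (Ccl9 by 1.42 ± 0.08 and Ccl6 by 0.79 ± 0.07) and 2 fell, and of 11 genes of NAD metabolism Cd38 was the only 1 to rise. The interleukin 1 receptor gene Il1r1 fell by 0.68 ± 0.17, a call lost without vehicle replicate 2 (adjusted p = 0.173). Of the chemokine falls, that of Ccl2 (-0.77 ± 0.25) was lost without any 1 DMHCA library (0.0825 to 0.134) or vehicle replicate 2 (0.383).

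The NF-kB list moved mostly down, by contrast. Of its 19 tested members 10 fell and 2 rose. Tnf, the cytokine, read 6.02, 5.06 and 3.74 CPM with DMHCA and 9.78, 12.7 and 10.6 CPM with vehicle (-1.23 ± 0.22). The adhesion molecule Icam1 read 30.4, 32.0 and 26.0 CPM against 45.7, 52.4 and 49.5 CPM (-0.76 ± 0.12). Subunits of the factor fell as well, Relb by 0.70 ± 0.11, Nfkb2 by 0.56 ± 0.08 and Rela by 0.33 ± 0.06, and so did the inhibitor Nfkbie, by 1.06 ± 0.17. The 2 that rose, Tnfaip3 (0.54 ± 0.06), the deubiquitinase A20 that damps the pathway, and Tnfaip2 (0.37 ± 0.05), went the other way in the same libraries. Of 21 genes of Toll-like receptor recognition 2 rose and 5 fell. Tlr4 rose by 0.38 ± 0.06 and Tlr2 fell by 0.80 ± 0.13, with 24.6, 26.5 and 22.4 CPM against 42.0, 42.7 and 43.0 CPM. The count of 5 shrank to 2 or 3 without DMHCA replicate 1 or 3 or vehicle replicate 1 or 2.

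Interferon-stimulated genes fell in part, with a vehicle library that stood above the rest. Of 25 tested 8 fell and 0 rose. Oas2, a sensor of double-stranded RNA, read 2.36, 2.27 and 2.67 CPM with DMHCA and 5.72, 10.1 and 8.36 CPM with vehicle (-1.72 ± 0.27), and Irf1 read 38.2, 48.2 and 40.7 CPM against 63.1, 63.2 and 60.5 CPM (-0.55 ± 0.09). Irf7, the master factor of interferon production, read 12.3, 11.2 and 11.8 CPM against 12.5, 31.7 and 11.6 CPM, so that its call rested on vehicle replicate 2 (adjusted p = 0.0426, and 0.950 without it), and it was also lost without each DMHCA library (0.0833 to 0.146) and by DESeq2 (0.259). Without that library 5 of the 25 fell and 1 rose, Ifitm3.

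Genes of macrophage identity moved both ways. Of 20 tested lineage factors and receptors 4 rose and 9 fell. Irf8, a monocyte factor, rose by 0.63 ± 0.06, Fcgr1, the high-affinity IgG receptor, by 0.59 ± 0.07 and Csf2rb by 0.53 ± 0.05. Gata6, which marks resident peritoneal macrophages, read 2.62, 4.89 and 7.08 CPM with DMHCA and 10.7, 11.5 and 8.36 CPM with vehicle (-0.96 ± 0.20), and Csf1r, the receptor of the growth factor M-CSF, fell by 0.27 ± 0.05. Smaller falls were those of Emr1, the F4/80 antigen (-0.28 ± 0.05), and Itgax (-0.20 ± 0.05). Falls of Gata6 were seen in each alternative fit, while that of Itgam was lost without vehicle replicate 2 (adjusted p = 0.0508).

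Calls among lysosome and clearance genes were mostly rises. Of 25 tested lysosome genes 6 rose and 0 fell, led by Ctsl, cathepsin L, at 6474, 6588 and 7129 CPM with DMHCA and 4265, 4072 and 4258 CPM with vehicle (0.68 ± 0.05). Of 14 genes of apoptotic cell clearance 3 rose and 1 fell: Stab2, a scavenger receptor, read 6.29, 8.91 and 8.15 CPM against 2.31, 1.5 and 1.35 CPM (2.22 ± 0.24), and the complement chains C1qb (0.54 ± 0.05) and C1qc (0.35 ± 0.07) rose with it. The fall of Thbs1, thrombospondin, was lost without vehicle replicate 2 (adjusted p = 0.128) or DMHCA replicate 1 (0.0601) and by DESeq2 (0.0897). The call of Ctsd, cathepsin D (0.19 ± 0.05), was lost without DMHCA replicate 3 (adjusted p = 0.0584).

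Proteases and matrix genes moved both ways. Of 15 metalloproteinase and plasminogen genes 4 rose and 3 fell. Mmp27 read 40.3, 35.8 and 30.9 CPM with DMHCA and 9.32, 10.7 and 7.00 CPM with vehicle (1.94 ± 0.13), and Mmp8, a collagenase of phagocytes, rose by 1.37 ± 0.15. Mmp14, a membrane collagenase, fell by 0.53 ± 0.07 and Timp3, an inhibitor held in the matrix, by 0.77 ± 0.16. Fn1, fibronectin, read 577, 804 and 729 CPM against 819, 1284 and 991 CPM (-0.55 ± 0.12), a call lost without vehicle replicate 2 (adjusted p = 0.0538) and by DESeq2 (0.0611).

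All 8 tested markers of stellate cells and fibroblasts fell. Acta2, smooth muscle actin, read 8.12, 6.81 and 7.61 CPM with DMHCA and 15.7, 24.8 and 16.0 CPM with vehicle (-1.35 ± 0.20). The collagen Col1a1 read 27.0, 44.4 and 27.8 CPM against 55.5, 64.0 and 49.7 CPM (-0.77 ± 0.13), and Dcn, decorin, fell by 0.52 ± 0.12. The groups did not overlap for these 3, a separation downward found in 14.1% of all tested genes. Vehicle replicate 2 had the highest sum of the list. Of 6 tested mesothelial markers 1 fell, Upk3b, a call lost without vehicle replicate 2 (adjusted p = 0.191) or DMHCA replicate 1 (0.0811). The part of these cells in the falls of Timp3, Fn1 and Thbs1 was not tested.

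The remaining lists had fewer calls or calls in both directions. Of 16 NRF2 antioxidant genes 4 rose, with Osgin1 at 0.68 ± 0.11 and Hmox1, heme oxygenase, at 0.29 ± 0.05, and 5 fell, with Tkt, transketolase, at -0.27 ± 0.05. The 5 became 1 without DMHCA replicate 2 or 3 and 2 without vehicle replicate 1. Of 20 tested genes of glycolysis and hypoxia 1 rose, Vegfa (0.54 ± 0.06), and 2 fell, and of 15 PPAR and fatty acid oxidation genes 1 rose and 2 fell, among them the mitochondrial carrier gene Ucp2 at -0.48 ± 0.05. The cell cycle list had 0 of 24 higher and 1 lower, Ccnd2, a call lost in 6 of 11 alternative fits. MHC class II and costimulation genes had 0 of 12 higher and 1 lower, Cd83 (-0.25 ± 0.08), lost without any 1 DMHCA library (adjusted p = 0.0572 to 0.106) or without vehicle replicate 1 (0.139). Of 10 genes of alternative activation the only call, Trem2 (0.13 ± 0.05), was lost in 9 of 13 alternative fits, among them those without each of the 6 libraries in turn. Eicosanoid, complement and TGF-beta genes had 2 higher of 11, 12 and 14 tested, with 2, 2 and 1 lower. Several of these small counts turned on 1 library. Without vehicle replicate 2 the complement list had 0 lower, as it had without DMHCA replicate 1, the glycolysis list had 0 lower, as it had without DMHCA replicate 3, and the TGF-beta list had 1 higher and 0 lower.

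**Figure D4:**
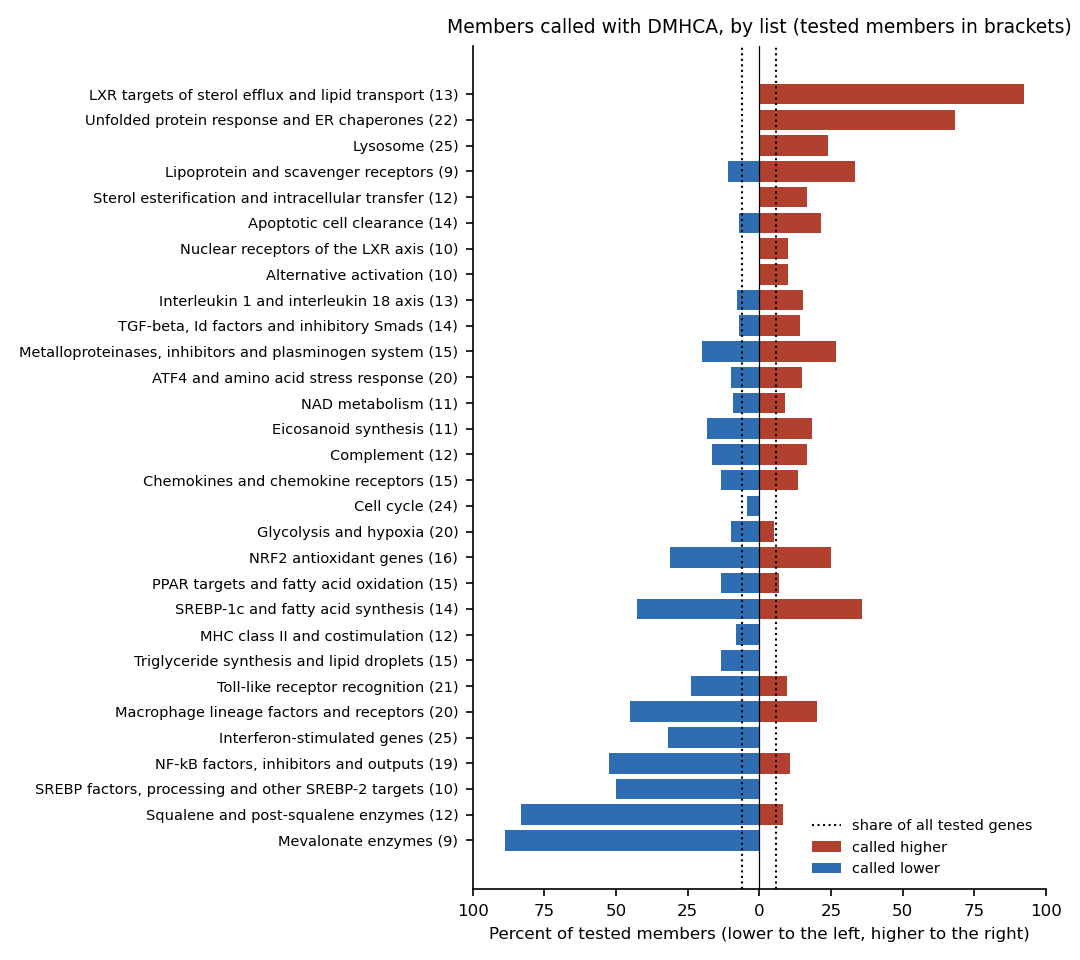
Share of the tested members of each list called higher (red, to the right) or lower (blue, to the left) with DMHCA, in percent, with the number of tested members in brackets; dotted lines mark the 5.80% and 5.90% of all tested genes. LXR targets (12 of 13) and chaperones (15 of 22) stand at the top and the enzymes of cholesterol synthesis at the bottom.

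Several of the largest rises lay outside the lists. Bach2os, an antisense gene overlapping Bach2, read 9.69, 12.6 and 10.3 CPM with DMHCA and 1.38, 0.875 and 0.844 CPM with vehicle (3.41 ± 0.23). Ipcef1, a partner of cytohesin exchange factors whose window holds a DR4 match, rose by 2.51 ± 0.39, Ksr2, a scaffold of MAP kinases, by 2.12 ± 0.18 and Vipr1, a receptor for vasoactive intestinal peptide, by 2.11 ± 0.29. Gngt2, a G protein subunit, rose by 1.84 ± 0.06, and its exons overlap those of Abi3 on the other strand. Among the falls were Flt1, a VEGF receptor (-2.30 ± 0.56), and A2m, the protease trap alpha-2-macroglobulin (-1.92 ± 0.41), both below 5 CPM in every library. By gain in CPM the heparan sulfate proteoglycan Sdc3 (0.98 ± 0.05) and the asparaginyl protease Lgmn (0.45 ± 0.06) stood beside the cathepsins, and by loss Cybb, the oxidase subunit gp91phox (-0.38 ± 0.05), and Ahnak (-0.32 ± 0.05).

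DMHCA was set against T0901317, a synthetic LXR agonist of another chemical class, at the matched dose of 1 uM. Of 11544 genes 591 differed (5.12%), with 260 higher with DMHCA (2.25%) and 331 lower (2.87%), and without DMHCA replicate 3 there were 336. In fatty acid synthesis 11 of 14 tested members were lower with DMHCA and 0 higher. Scd1 averaged 44.0 ± 1.24 CPM with DMHCA and 508 ± 29.6 CPM with T0901317 (SD, n = 3 each), a log2 difference of -3.54 ± 0.07. Fasn averaged 101 ± 11.2 CPM against 620 ± 14.5 CPM (-2.63 ± 0.07) and Srebf1 200 ± 3.96 CPM against 420 ± 27.5 CPM (-1.07 ± 0.06). Of the 21 enzymes of cholesterol synthesis 18 were lower with DMHCA and 0 higher, with a median difference of -1.56, among them Sqle at 33.0 ± 5.70 CPM against 123 ± 0.602 CPM. Of 13 tested LXR targets 9 were lower with DMHCA and 1 higher, with a median difference of -0.35. Abca1 differed less than Scd1, Fasn or Srebf1, at 2086 ± 81.1 CPM against 3079 ± 74.4 CPM (-0.56 ± 0.05). Of 22 genes of the unfolded protein response list 2 were higher with DMHCA and 0 lower, with a median difference of 0.06. Hspa5 was higher with DMHCA by 0.17 ± 0.05 (adjusted p = 0.0261). Over vehicle, T0901317 raised 15 of the 22 and lowered 0, the same counts as DMHCA. GW3965 raised 13, desmosterol 11 and MePipHCA 22. Tnf did not differ beyond its error (0.02, interval -0.53 to 0.56).

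MePipHCA, the other cholenamide, carries a methylpiperidine in place of the dimethyl amine in the amide, and was also given at 1 uM. DMHCA differed from it in 2639 genes (22.9%), with 1399 higher with DMHCA (12.1%) and 1240 lower (10.7%), the second of 2 pairs of compounds compared, with p-values adjusted over all genes of each. Enzymes of cholesterol synthesis were higher with DMHCA in 14 of 21 and lower in 0, with a median difference of 0.62: Sqle averaged 33.0 ± 5.70 CPM with DMHCA and 14.7 ± 0.589 CPM with MePipHCA (SD, n = 3 each), a log2 difference of 1.20 ± 0.12, and Hmgcs1 97.6 ± 7.73 CPM against 55.8 ± 2.72 CPM (0.81 ± 0.07). Stress genes were lower with DMHCA, 21 of 22 chaperone genes and 18 of 20 genes of the ATF4 list, with Hspa5 at 1063 ± 8.25 CPM against 1837 ± 55.3 CPM and Asns at 6.20 ± 0.398 CPM against 43.4 ± 1.68 CPM (-2.79 ± 0.17). Acta2 averaged 7.51 ± 0.661 CPM with DMHCA and 0.982 ± 0.393 CPM with MePipHCA, and stromal markers were higher with DMHCA in 8 of 8. Srebf1 was higher with DMHCA by 0.65 ± 0.06. For Scd1 (0.14, interval -0.04 to 0.33), Mylip (-0.14, interval -0.26 to -0.02, adjusted p = 0.0836), Cd38 (-0.20, interval -0.45 to 0.04) and Lbp (-0.13, interval -0.47 to 0.21) the difference did not pass the threshold.

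**Figure D5:**
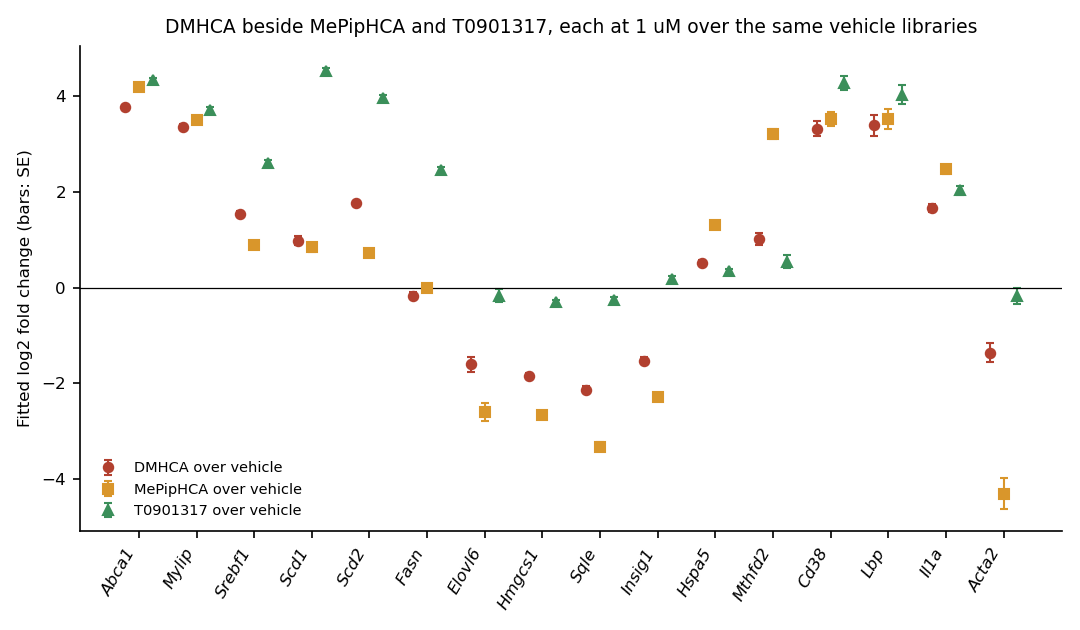
Fitted log2 fold changes over the same 3 vehicle libraries, with SE bars, for 16 genes with DMHCA (circles), MePipHCA (squares) and T0901317 (triangles), each at 1 uM. All 3 lie above 3 for Abca1 and Mylip; DMHCA and MePipHCA lie below T0901317 for Scd1, Fasn and the sterol enzymes, and MePipHCA lies above both for Mthfd2 and below both for Insig1 and Acta2.

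The same dose in primary hepatocytes changed no gene past the threshold. With 2 libraries per group, 0 of 13176 genes (0%) were called by edgeR and 0 by DESeq2, with 615 at an unadjusted p below 0.05, and edgeR called 27 without hepatocyte DMHCA replicate 2 and 6 without hepatocyte vehicle replicate 2. Abca1 read 166 and 163 CPM with DMHCA and 190 and 158 CPM with vehicle, and Hmgcs1 read 1279 and 1443 CPM against 1226 and 1377 CPM, overlapping groups in each. The response differed between the cell types in 377 of 13700 genes (2.75%) by the interaction of treatment and cell type, with 194 higher in macrophages (1.42%) and 183 lower (1.34%). That count was 648 without hepatocyte DMHCA replicate 2, 202 without hepatocyte vehicle replicate 1 and 246 without macrophage vehicle replicate 2. Cell type was confounded with culture medium and with the date in the sample titles, so they cannot be told apart.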

How the data were processed

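RNA was poly(A)-selected and sequenced as dUTP libraries, per the labels' protocols. The authors deposited raw read counts over exons per gene as whole numbers; STAR, HOMER and mm10 appear in the submitters' processing notes, and versions and the strand option are not given in the sources used here. Counts were analysed with edgeR 4.0.16 in R 4.3.3: TMM scaling, filterByExpr, and the quasi-likelihood test fitted on all 18 macrophage libraries with 1 mean per group, so that groups share an estimate of the spread. P-values were adjusted by Benjamini-Hochberg over all genes tested, and the threshold was 0.05. Fold changes are DMHCA over or minus its comparator, with SE from the test statistic. CPM are on TMM-scaled libraries. Hepatocytes (2 libraries a group) were fitted apart, and the interaction in a joint fit of 30 libraries matched by symbol. The alternatives were other scaling, filters, DESeq2 1.42.0, thinned counts, a replicate block, only the groups compared and leaving out each library. The fits were tested on simulated data.

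The members and gene lists were chosen with earlier results of these data known. Genes named were Abca1, Abcg1, Mylip, Srebf1, Scd1 and Fasn always, up to 6 called members of each list with the largest fold change and uncalled members as values, the 20 largest rises and 20 largest falls with groups apart and at least 2 CPM in the higher group, and the 12 largest gains and 12 largest losses of CPM; other genes (such as overlap partners) were added after their values were seen. Promoter windows and gene starts are from RefSeq (GRCm38.p6), matched by symbol. Intervals on counts cover counting error only. Values of some list members are not reported here, though counts and medians of the lists include them.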

Additional observations from a re-analysis of the deposited data

Results flagged for a closer look

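Of Abca1, Abcg1, Mylip, Srebf1, Scd1 and Fasn, 5 differed in their response to DMHCA between macrophages and hepatocytes. The test was the edgeR interaction, adjusted over all genes, which called 377 of 13700 genes (2.75%). The log2 response in macrophages minus that in hepatocytes was 3.84 (SE 0.106, adjusted p = 2.24e-29) for Abca1, with -0.09 in hepatocytes, and 3.47 (SE 0.592, adjusted p = 0.000132) for Mylip. It was 1.38 (SE 0.121, adjusted p = 1.59e-11) for Srebf1 and 0.942 (SE 0.122, adjusted p = 5.25e-07) for Scd1, with 0.14 and 0.03 in hepatocytes. For Fasn it was -0.482 (SE 0.114, adjusted p = 0.00877), with -0.17 in macrophages and 0.30 in hepatocytes, neither past the threshold by itself. For Abcg1 the difference of 1.42 (SE 0.703) did not pass (adjusted p = 0.388). Medium and title date differed with the cell type and cannot be told apart from it.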

How the results depend on the processing

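Across 13 other settings the calls between DMHCA and vehicle in macrophages numbered 1015 (thinned to 1 depth) to 1585 (only the groups compared) without leaving out a library, and DESeq2 called 1161. Leaving out 1 library gave 898 to 1205 calls, 467 to 582 higher and 431 to 623 lower. Whether shared replicate numbers pair the libraries cannot be decided from 3 libraries a group. Deviations of same-numbered DMHCA and vehicle libraries correlated at 0.0295, 0.089 and 0.0463. The best-matching vehicle numbers for DMHCA replicates 1, 2 and 3 were 3, 2 and 3. The fit with a replicate block made 1402 calls. For the 503 genes followed one by one, 187 values lost and 50 gained the threshold and 0 reversed.

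Against T0901317 leaving out a library gave 336 calls (without DMHCA replicate 3) to 495, 141 to 221 higher and 195 to 285 lower. In hepatocytes, where 0 genes were called, there were 22 (3 higher, 19 lower) with no filter on low counts, 1 (lower) with the replicate block, and 0 to 27 (0 to 16 higher, 0 to 11 lower) without 1 library, the most without hepatocyte DMHCA replicate 2 and 6 without hepatocyte vehicle replicate 2. The interaction of 377 genes became 247 (128 higher, 119 lower) with libraries thinned to 1 depth, and leaving out 1 library gave 202 (without hepatocyte vehicle replicate 1) to 648 (without hepatocyte DMHCA replicate 2), 97 to 295 higher and 100 to 353 lower, with 246 without macrophage vehicle replicate 2. The causes were not tested. The DMHCA libraries were shallower than those of vehicle, so that low levels in them rest on fewer counts, and the hepatocyte groups had 2 libraries each.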
